A study of Mus musculus with 6 samples.

Results

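The miR-200 family is a set of microRNAs (miRNAs) typical of epithelial cells. Its members were taken by name, as every entry of the deposited table for an arm of miR-200a, miR-200b, miR-200c, miR-141 or miR-429, which gave 8 of the 199 mature miRNAs counted. Both arms of the hairpin were counted for miR-200a, miR-200b and miR-141, and the 3p arm alone was analysed for miR-200c and miR-429. Small RNA was sequenced from organoids of mouse intestine, which grow as closed epithelia from isolated crypts. In 3 libraries the organoids had received BMP4 (bone morphogenetic protein 4, a secreted ligand that is most active towards the villus) at 0.5 µg/ml for 4 days, and in 3 libraries they had received PBS, the vehicle. All 6 shared the organoid growth medium, and the labels name no strain, age or genetic change. Whether replicates are separate cultures is not stated in the labels, so p-values speak only to the spread of these 6 libraries, which may be technical.

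A miRNA guides the Argonaute protein to messenger RNAs that pair with its seed, the bases near its 5′ end, and lowers their translation and stability. The 3p arms of the miR-200 family are known for repressing Zeb1 and Zeb2, transcription factors that silence the E-cadherin gene, and so for holding cells in the epithelial state. The Zeb factors in turn repress both clusters of miR-200 genes, and loss of the family is a known feature of the epithelial-mesenchymal transition (EMT), the change by which epithelial cells lose their junctions and become motile.

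The mature sequences are printed by seed, since the seed is what sets apart the groups described here. They were taken from RefSeq (GRCm38.p6) and run 5′ to 3′, with the seed, bases 2 to 8, in capitals.
mmu-miR-200b-3p: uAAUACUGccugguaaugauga
mmu-miR-200c-3p: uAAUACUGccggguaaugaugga
mmu-miR-429-3p: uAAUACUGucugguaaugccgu
mmu-miR-200a-3p: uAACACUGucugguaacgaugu
mmu-miR-141-3p: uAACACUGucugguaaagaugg
mmu-miR-200a-5p: cAUCUUACcggacagugcugga
mmu-miR-200b-5p: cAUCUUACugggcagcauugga
mmu-miR-141-5p: cAUCUUCCagugcaguguugga

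The 3p arms fell into 2 seed groups. AAUACUG was shared by miR-200b-3p, miR-200c-3p and miR-429-3p, and AACACUG by miR-200a-3p and miR-141-3p. The groups were set apart within the seed by C4U, read from miR-200a-3p to miR-200b-3p with positions counted from 1 at the 5′ end. The 5p arms of miR-200a and miR-200b shared AUCUUAC, and miR-141-5p alone carried AUCUUCC. None of the 177 entries of the table that matched a RefSeq sequence had any of these 4 seeds apart from the 8 members. Members of a group were closely alike over their whole length. Over the 22 bases compared, miR-200b-3p and miR-200c-3p differed at 2 positions (U11G and A22G), and miR-141-3p and miR-200a-3p at 2 (A17C and G22U). A read trimmed or miscalled at such a position could be assigned to the other member, so the split between near-identical arms carries that uncertainty.

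The hairpins lay in 2 clusters, all on the minus strand. On chromosome 4, Mir200b (chr4:156055681-156055750), Mir200a (chr4:156054896-156054985) and Mir429 (chr4:156053905-156053987) spanned 1846 bp. In the GENCODE annotation of GRCm38 they lay in introns of Ttll10, a polyglycylase gene of the same strand, and inside the noncoding gene Gm13648, with Mir429 overlapping one of its exons. On chromosome 6, Mir200c (chr6:124718322-124718390) and Mir141 (chr6:124717914-124717985) lay 336 bp apart, in an intron of the noncoding gene Gm15884. Mir141 also overlapped an exon of Gm29008, and the nearest coding genes were Ptpn6, 2316 bp from Mir200c, and Phb2, 963 bp from Mir141. The hairpins of Mir200a and Mir200b are shown because their 5p arms were the members whose BMP4 and PBS libraries did not overlap in scaled level, described below. The same held for 43.6% of all miRNAs tested, so it does not single these arms out. As a share of all counts, every member was lower in each BMP4 library than in any PBS library. In each, the arms counted are in capitals, the 5p arm first.
Mir200a: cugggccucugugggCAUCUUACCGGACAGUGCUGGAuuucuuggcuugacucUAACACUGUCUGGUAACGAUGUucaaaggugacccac
Mir200b: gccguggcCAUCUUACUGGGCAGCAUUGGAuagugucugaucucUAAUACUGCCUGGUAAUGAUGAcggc

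The libraries held 998854 to 3486409 counts with BMP4 and 259811 to 2248866 counts with PBS. Composition differed strongly between the groups. The arms of miR-192, miR-194 and miR-215, miRNAs abundant in gut epithelium, took 78.8% ± 1.24 of the counts with BMP4 and 37.6% ± 1.63 with PBS (SD, n = 3 each). Factors from trimmed means of M-values (TMM), which rescale libraries so that the bulk of miRNAs is level, were 0.375 to 0.651 with BMP4 and 1.78 to 1.97 with PBS. BMP4 replicate 2 stood apart with the lowest factor, 0.375, so several results are also given without it. Levels are counts per TMM-scaled library size (CPM), so the CPM of a library need not sum to the usual total. Of the epithelial marker list 8 of 8 miRNAs were in the table, summing to 1187380 to 2123950 CPM with BMP4 and 193945 to 220594 CPM with PBS. Most of each sum was miR-215-5p, miR-192-5p and miR-194-5p, already counted in the shares above. The rest of the list went both ways. Mean CPM with BMP4 and PBS was 2348 and 3680 for miR-375-3p, and 643 and 702 for miR-96-5p. It was 2481 and 1580 for miR-31-5p, 347 and 188 for miR-182-5p, and 7827 and 5839 for miR-183-5p. None of these passed the edgeR test described below. Of the stromal and muscle list 1 of 11 was in the table (miR-1a-3p, 20.2 to 34.7 CPM with BMP4 and 11.7 to 23.2 CPM with PBS), and of the erythroid list 0 of 4. Of the immune list 2 of 6 were in the table, miR-146a-5p and miR-155-5p (74.4 to 110 CPM summed with BMP4, 40.9 to 54.7 CPM with PBS). With TMM scaling miR-146a-5p was called higher with BMP4 (edgeR adjusted p = 0.0238). miR-155-5p went the other way without passing, at a mean of 10.2 CPM with BMP4 and 13.0 CPM with PBS. Of the endothelial list 1 of 2 was in the table (43.4 to 58.8 CPM with BMP4, 50.9 to 81.2 CPM with PBS), and of the neuronal list 2 of 5 (110 to 174 CPM with BMP4, 184 to 294 CPM with PBS). The neuronal miRNAs were miR-218-5p, called lower with BMP4 (edgeR adjusted p = 0.0140), and miR-9-5p, which did not pass the filter on low counts. The part of these markers in the results was not tested.

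The family took a smaller share of the reads with BMP4. It held 4.38%, 3.06% and 4.28% of all counts in the BMP4 libraries, against 14.2%, 12.7% and 12.7% in the PBS libraries. Every BMP4 library lay below every PBS library, and 95% Wilson intervals, which cover counting error only, were at most 0.268 percentage points wide. The means were 3.91% ± 0.734 with BMP4 and 13.2% ± 0.830 with PBS (SD, n = 3 each), a difference of -9.29 percentage points (exact 2-sided permutation test, p = 0.1, the smallest that 3 against 3 allows). Most of this gap was absent once these abundant gut arms were taken out of the total. Of the remaining counts the family held 21.4%, 15.0% and 18.9% in the BMP4 libraries, against 22.2%, 20.3% and 21.0% in the PBS libraries. These ranges overlapped, and the difference was -2.74 percentage points (exact 2-sided permutation test, p = 0.3). Shares are relative, and in RNA from whole organoids fewer cells that make a miRNA and less of it in each cell cannot be told apart.

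**Figure D1:**
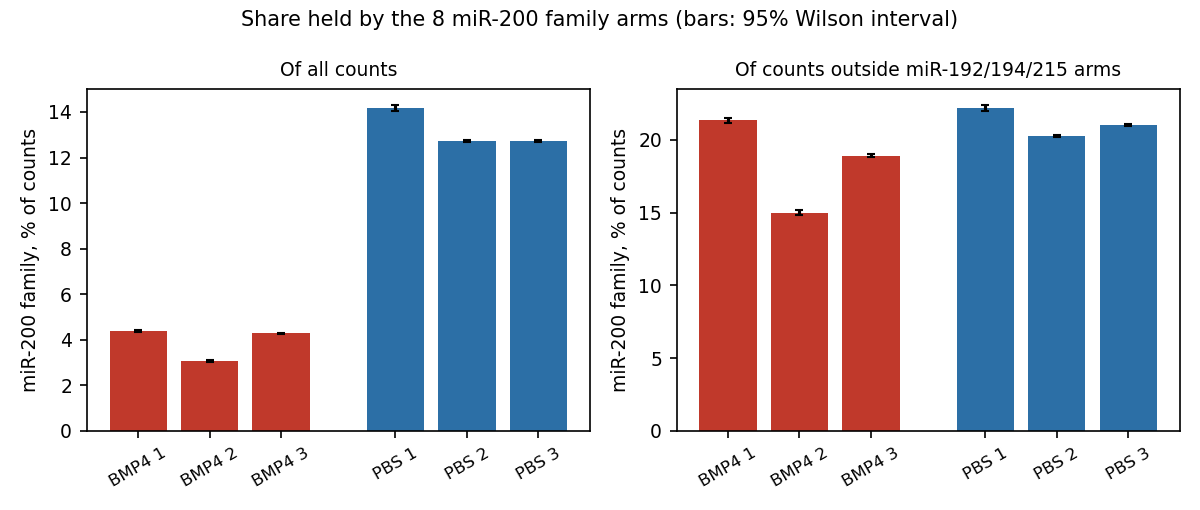
Share of library counts held by the miR-200 family, as a percent of all counts and as a percent of counts outside the arms of miR-192, miR-194 and miR-215. Each column is a library (BMP4 left, PBS right), with its 95% Wilson interval. Of all counts the BMP4 libraries sit between 3.06% and 4.38%, below all PBS libraries, and outside those arms the groups overlap.

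Scaled by TMM, the summed family level differed little between the groups. It was 73016, 81767 and 65731 CPM in the BMP4 libraries, against 71998, 71469 and 65184 CPM in the PBS libraries. The ranges overlapped, with means of 73505 ± 8029 CPM with BMP4 and 69550.4 ± 3791 CPM with PBS (SD, n = 3 each; exact 2-sided permutation test, p = 0.4). One member dominated the sum in all libraries. miR-200b-3p ranked 5, 6 and 5 among the miRNAs of the table in the BMP4 libraries, against 3, 3 and 3 in the PBS libraries. Behind it came miR-200c-3p, miR-200a-3p, miR-429-3p, miR-200a-5p, miR-200b-5p, miR-141-3p and miR-141-5p. This order was the same in all libraries but BMP4 replicate 2, where miR-200a-5p (537 counts) passed miR-429-3p (393 counts). All others kept their places within each library. Over the 6 libraries the ranges overlapped for the neighbours miR-200c-3p and miR-200a-3p, miR-429-3p and miR-200a-5p, and miR-200b-5p and miR-141-3p. The members are 22 or 23 bases long, so no length scaling was needed to set them side by side. Whether library preparation recovers each sequence equally was not tested, so this order is one of counts, not of molecules. miR-141-5p, the rarest, had 16, 8 and 32 counts with BMP4 and 13, 79 and 58 counts with PBS.

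**Figure D2:**
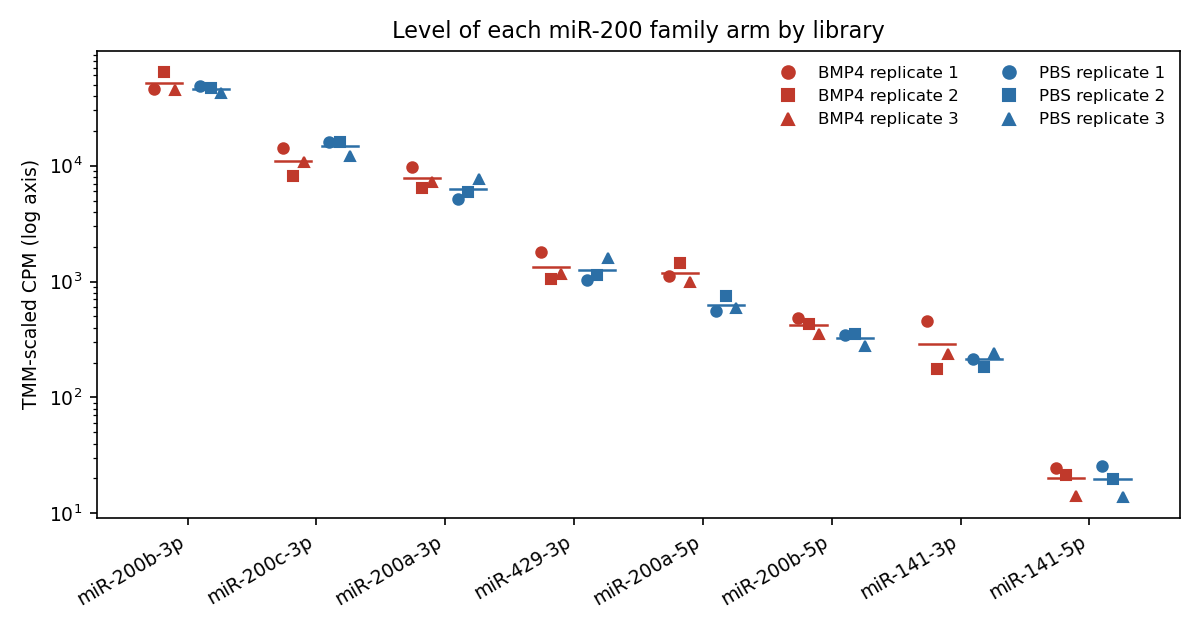
TMM-scaled CPM of the 8 miR-200 family members in each library, on a log axis, with BMP4 left and PBS right for every member. Points are libraries and horizontal lines are group means. miR-200b-3p is highest in all libraries, and the groups are apart for miR-200a-5p and miR-200b-5p only.

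In the comparison of BMP4 with PBS, 1 of the 8 members, miR-200a-5p, passed the test, and it rose with TMM scaling (total counts gave the opposite sign). The test was edgeR's quasi-likelihood F test over the 195 miRNAs that passed the filter on low counts, with all 8 members among them and p-values adjusted by Benjamini-Hochberg over all 195. Over all miRNAs tested, 30.3% were called at an adjusted p under 0.05, 17.4% higher and 12.8% lower, so 1 of 8 is not more than the background. The members' median log2 fold change was 0.24, beside 0.03 over all miRNAs tested. In TMM-scaled CPM the BMP4 and PBS libraries did not overlap for 2 of 8 members, miR-200a-5p and miR-200b-5p, against 43.6% of all miRNAs tested.

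The 5p arms of miR-200a and miR-200b are usually the less abundant, passenger strands of their hairpins. mmu-miR-200a-5p had 1112, 1435 and 996 CPM in the BMP4 libraries, against 556, 749.7 and 592 CPM in the PBS libraries. All BMP4 libraries lay above all PBS libraries, and the highest was BMP4 replicate 2. The means were 1181 ± 228 CPM with BMP4 and 632 ± 103 CPM with PBS (SD, n = 3 each), a log2 fold change of 0.90 ± 0.32 (SE) with an edgeR adjusted p of 0.0405, rank 51 by p and 38 by log2 fold change among the 195. Without BMP4 replicate 2 the log2 fold change was 0.73 (edgeR adjusted p = 0.0198). No call was made when any other library was omitted. The edgeR adjusted p was 0.0564 or 0.0723 when BMP4 replicate 1 or 3 was omitted, and 0.0996, 0.0589 or 0.101 when PBS replicate 1, 2 or 3 was omitted. Its log2 fold change stayed between 0.73 and 1.12 over these omissions.

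mmu-miR-200b-5p, which has the same seed, had 482, 433 and 353 CPM in the BMP4 libraries, against 343, 351 and 279 CPM in the PBS libraries. The lowest BMP4 library lay just above the highest PBS library, so the groups were apart by a narrow margin. The log2 fold change was 0.38 ± 0.34 (SE), which did not pass (edgeR adjusted p = 0.425). mmu-miR-141-5p, with its own seed, had 24.8, 21.4 and 14.1 CPM in the BMP4 libraries, against 25.4, 19.7 and 13.96 CPM in the PBS libraries. These values rested on 8 to 79 counts per library, above the level that 3 counts give (0.722 to 8.02 CPM, by library). The groups overlapped. Its log2 fold change was 0.03 ± 0.43 (SE; edgeR adjusted p = 0.954), with a wide error at this depth.

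The 3p arms with the seed AAUACUG carried most of the family. mmu-miR-200b-3p had 45363, 64222 and 44990 CPM in the BMP4 libraries, against 48596, 46995 and 42608 CPM in the PBS libraries. BMP4 replicate 2 was the one high value, and the other BMP4 libraries fell inside the PBS range. The log2 fold change was 0.16 ± 0.27 (SE; edgeR adjusted p = 0.677), and it was -0.03 without BMP4 replicate 2. mmu-miR-200c-3p had 14097, 8071 and 10723 CPM in the BMP4 libraries, against 16042, 16109 and 12183 CPM in the PBS libraries. BMP4 replicate 2 was the lowest, and BMP4 replicate 1 lay above PBS replicate 3, so the groups overlapped. This member had the only negative log2 fold change of the 8, -0.43 ± 0.29 (SE; edgeR adjusted p = 0.299), and -0.26 without BMP4 replicate 2. mmu-miR-429-3p had 1785, 1050.3 and 1162 CPM in the BMP4 libraries, against 1032, 1139 and 1607 CPM in the PBS libraries. The ranges of the groups overlapped, with a log2 fold change of 0.08 ± 0.32 (SE; edgeR adjusted p = 0.854).

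The 3p arms with the seed AACACUG did not pass the test either. mmu-miR-200a-3p had 9695, 6358 and 7255 CPM in the BMP4 libraries, against 5191, 5923 and 7659 CPM in the PBS libraries. The groups overlapped at PBS replicate 3, and the log2 fold change was 0.31 ± 0.29 (SE; edgeR adjusted p = 0.450). mmu-miR-141-3p had 456, 176 and 237 CPM in the BMP4 libraries, against 213, 183 and 242 CPM in the PBS libraries. One library, BMP4 replicate 1, was high, and BMP4 replicate 2 was the lowest of all 6. The log2 fold change was 0.45 ± 0.38 (SE; edgeR adjusted p = 0.409), and it lay between -0.03 and 0.69 when single libraries were left out.

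The sign of these values depended on how the libraries were scaled. With total counts in place of TMM, 8 of 8 members were called lower, beside 81% of all miRNAs tested, and the median over all miRNAs tested moved to -1.78. On that scale miR-200a-5p had a log2 fold change of -0.95. A change of scaling moves all miRNAs by nearly the same amount. Distances from the median over all miRNAs were therefore kept by construction, and lend no further support. miR-200a-5p lay above that median by 0.87 with TMM and by 0.83 with total counts, on the log2 scale. miR-200c-3p lay at -0.46 with TMM and at -0.40 with total counts, and miR-200b-3p at 0.13 and 0.08 on the same scales. With upper quartile factors, or with totals that left out the gut arms, no member was called (edgeR adjusted p for miR-200a-5p = 0.0831 and 0.170, against 0.0170 with DESeq2). At an unadjusted p under 0.05, 1 member passed with upper quartile factors and 0 with the reduced totals.

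**Figure D3:**
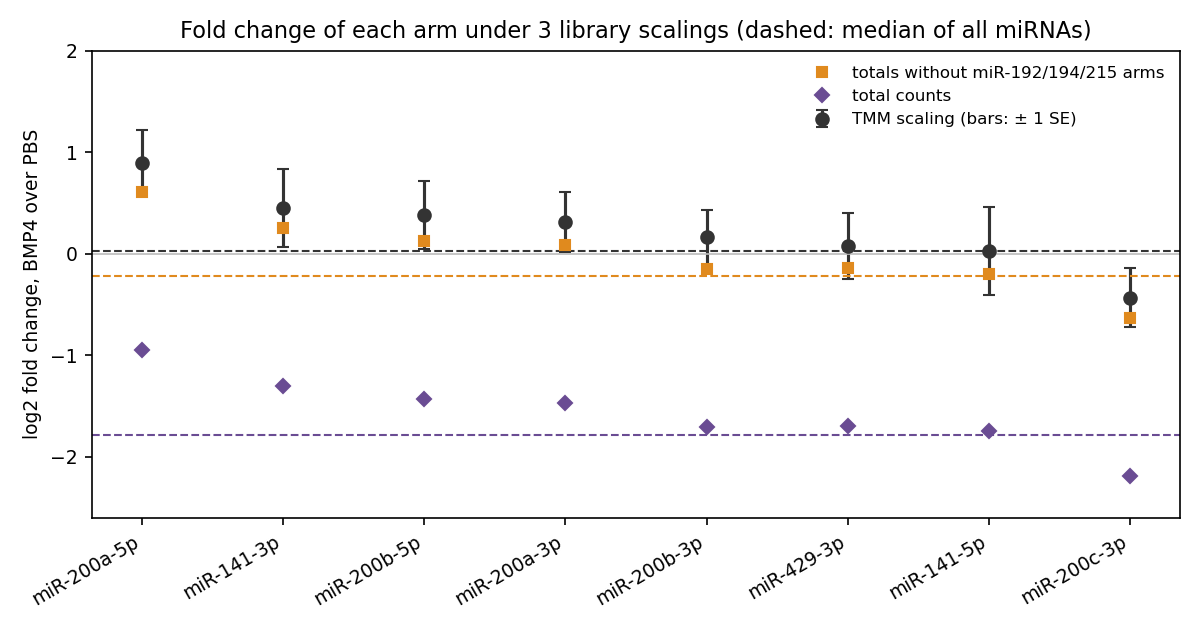
Log2 fold change (BMP4 over PBS) of each miR-200 family member under 3 scalings of the libraries: TMM (with bars of 1 SE), totals without the arms of miR-192, miR-194 and miR-215, and total counts. Dashed lines are the medians over all miRNAs tested, 0.03 with TMM and -1.78 with total counts. miR-200a-5p lies above and miR-200c-3p below that median under each scaling, because scaling moves all miRNAs together.

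Shares within the family need no scaling between libraries. miR-200b-3p made up 62.1%, 78.5% and 68.4% of family counts in the BMP4 libraries, against 67.5%, 65.8% and 65.4% in the PBS libraries. The BMP4 libraries spread on both sides of the PBS libraries (69.7% ± 8.28 with BMP4 and 66.2% ± 1.13 with PBS, SD, n = 3 each; exact 2-sided permutation test, p = 0.7). The difference in means was 3.50 percentage points, and -0.919 without BMP4 replicate 2. miR-200c-3p made up 19.3%, 9.87% and 16.3% in the BMP4 libraries, against 22.3%, 22.5% and 18.7% in the PBS libraries. BMP4 replicate 2 was again the far value, low here where it was high for miR-200b-3p. The means were 15.2% ± 4.82 with BMP4 and 21.2% ± 2.15 with PBS (SD, n = 3 each), with overlapping ranges (exact 2-sided permutation test, p = 0.2). Their difference was -6.01 percentage points, and -3.36 without BMP4 replicate 2.

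The 5p arms together made up more of the family in every BMP4 library. They held 2.22%, 2.31% and 2.07% of family counts in the BMP4 libraries, against 1.28%, 1.57% and 1.36% in the PBS libraries. The groups were apart, with means of 2.20% ± 0.119 with BMP4 and 1.40% ± 0.148 with PBS (SD, n = 3 each) and a difference of 0.798 percentage points. This had the smallest p the design allows (exact 2-sided permutation test, p = 0.1, and 0.367 adjusted over the 11 shares compared). The grouping was chosen after the counts were seen and holds miR-200a-5p and miR-200b-5p, each apart by itself. Its p-value therefore lends no separate support. Without BMP4 replicate 2 the difference was 0.743 percentage points. Most of it came from miR-200a-5p, at 1.52%, 1.76% and 1.52% in the BMP4 libraries, against 0.772%, 1.05% and 0.908% in the PBS libraries. miR-200b-5p was also apart, by less, at 0.661%, 0.529% and 0.538% in the BMP4 libraries, against 0.476%, 0.491% and 0.429% in the PBS libraries. miR-141-5p overlapped between the groups, with a mean of 0.0272% with BMP4 and 0.0281% with PBS.

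Grouped by gene or by cluster, both arms included, the shares overlapped between the conditions. The arms of miR-200b, miR-200c and miR-429 held 84.5%, 90.2% and 87.1% of family counts in the BMP4 libraries, against 91.7%, 90.4% and 86.9% in the PBS libraries (exact 2-sided permutation test, p = 0.3). Among the 3p arms alone, where these genes make up the seed group AAUACUG, the difference in share was -1.82 percentage points (exact 2-sided permutation test, p = 0.6). The chromosome 4 hairpins held 80.0%, 89.9% and 83.3% in the BMP4 libraries, against 77.4%, 77.2% and 80.9% in the PBS libraries (exact 2-sided permutation test, p = 0.2). BMP4 replicate 2 was the highest BMP4 library for both of these gene groupings. The difference for the chromosome 4 hairpins was 5.92 percentage points, and 3.18 without BMP4 replicate 2. For the arms of miR-200b, miR-200c and miR-429 it was -2.39, and -3.87 without that library.

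**Figure D4:**
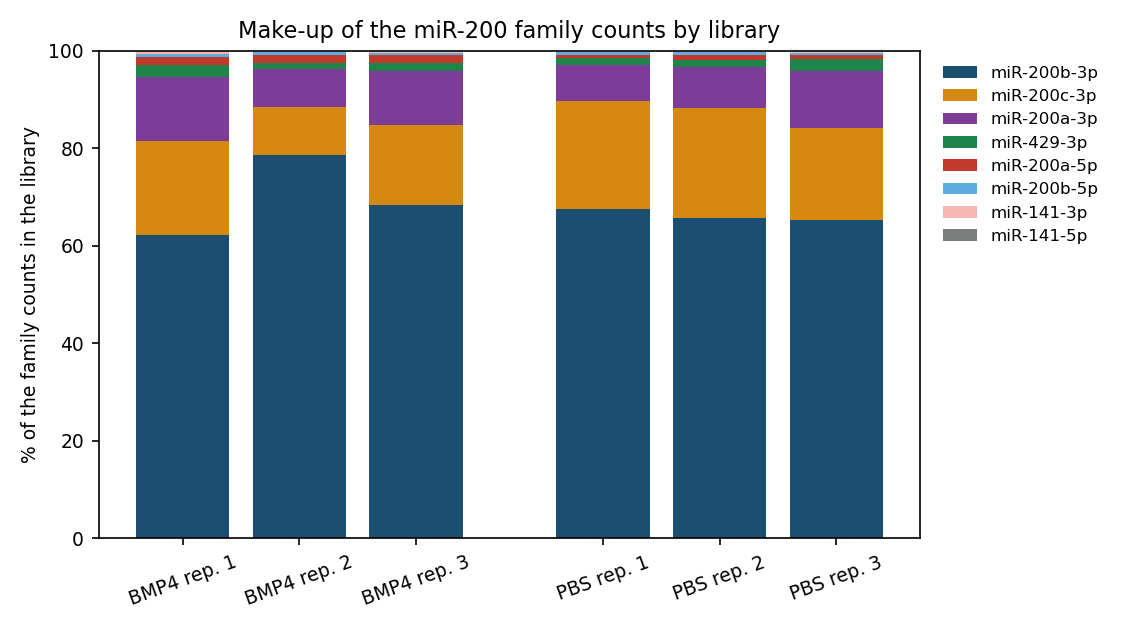
Percent of miR-200 family counts held by each member, one bar per library, with the BMP4 libraries left of the PBS libraries. miR-200b-3p holds between 62.1% and 78.5%, and BMP4 replicate 2 has the largest share of it and the smallest share of miR-200c-3p (9.87%).

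Pairs of members from one library were also set against each other, over all 28 pairs. The BMP4 and PBS ranges did not overlap for 8 of the 28 ratios (28.6%), fewer than the 47.7% of all pairs of tested miRNAs, and none passed adjustment (exact 2-sided permutation test, smallest adjusted p = 0.35). All of these 8 ratios but that of miR-429-3p to miR-200a-3p had miR-200a-5p or miR-200c-3p as a member. miR-200a-5p was 2.45%, 2.23% and 2.21% of miR-200b-3p in the BMP4 libraries, against 1.14%, 1.60% and 1.39% in the PBS libraries. Here BMP4 replicate 2 lay with the other BMP4 libraries, and the ratio of the means was 1.67. miR-200a-3p was 68.8%, 78.8% and 67.7% of miR-200c-3p, the partner from the other cluster, in the BMP4 libraries, against 32.4%, 36.8% and 62.9% in the PBS libraries. PBS replicate 3 came close to the BMP4 range, and the ratio of the means was 1.63. miR-141-3p, made from the same cluster as miR-200c-3p, was 3.23%, 2.19% and 2.21% of it in the BMP4 libraries, against 1.33%, 1.14% and 1.99% in the PBS libraries. miR-429-3p was 18.4%, 16.5% and 16.0% of miR-200a-3p, its neighbour on chromosome 4, in the BMP4 libraries, against 19.9%, 19.2% and 21.0% in the PBS libraries. The nearest libraries were 18.4% with BMP4 and 19.2% with PBS, and the ratio of the means was 0.848.

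The ratio of the arms of the miR-200a hairpin did not separate the groups, although miR-200a-5p rose with TMM scaling. The 5p arm of miR-200a was 11.5%, 22.6% and 13.7% of the 3p arm in the BMP4 libraries, against 10.7%, 12.7% and 7.73% in the PBS libraries. BMP4 replicate 2 was far above the rest, and BMP4 replicate 1 lay inside the PBS range. The log2 difference of the arm ratio was 0.59 ± 0.47 (SE; limma adjusted p = 0.528), and 0.30 without BMP4 replicate 2. The 5p arm of miR-200b was 1.06%, 0.674% and 0.785% of its 3p arm in the BMP4 libraries, against 0.705%, 0.747% and 0.656% in the PBS libraries. That of miR-141 was 5.44%, 12.1% and 5.94% in the BMP4 libraries, against 11.9%, 10.8% and 5.77% in the PBS libraries. Both overlapped between groups, with log2 differences of 0.24 ± 0.42 and -0.28 ± 0.53 (SE; limma adjusted p = 0.792 for both). Of the 34 hairpins with both arms at a mean of 10 or more counts, 1 (2.94%) was called, and it was none of these. The 3p arm was the more abundant one in every library for all 3 hairpins.

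**Figure D5:**
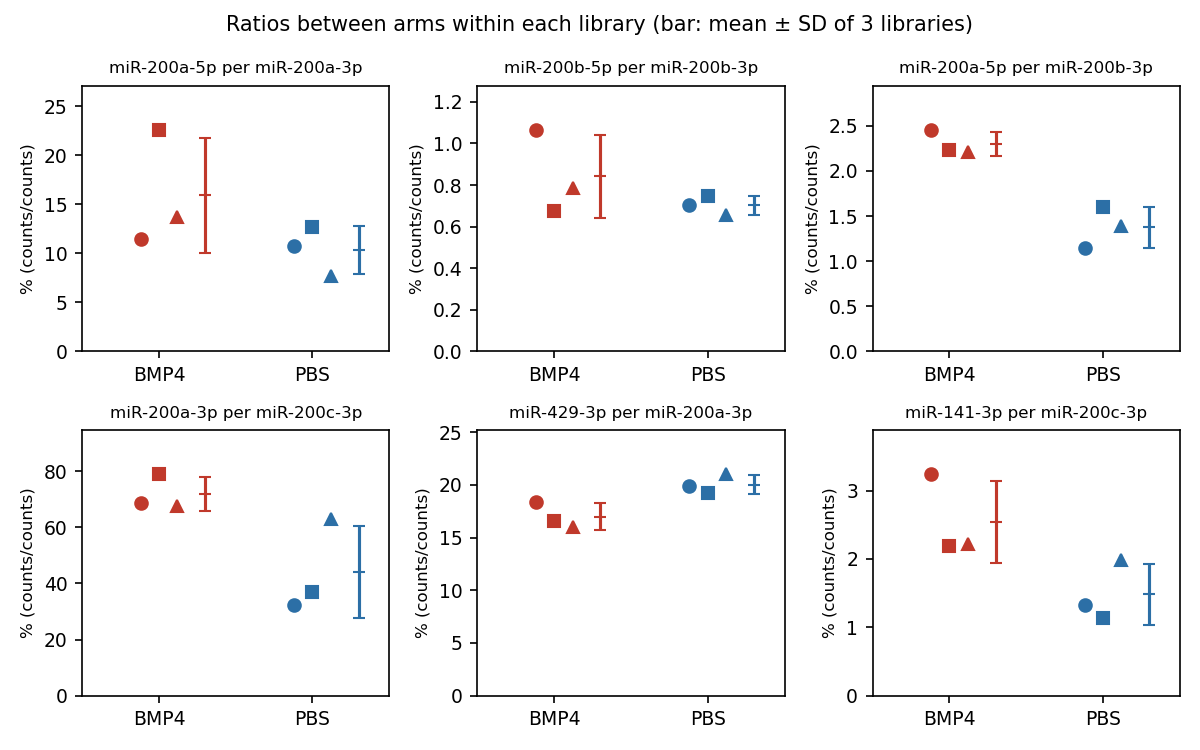
Ratios of miR-200 family members within a library, in percent of counts, with BMP4 left and PBS right in each of 6 panels. Points are libraries and bars are means with SD (n = 3). The groups overlap for the 5p to 3p ratios of miR-200a and miR-200b and are apart in the other 4 panels. The panels were picked from the 28 pairs, of which 28.6% were apart, against 47.7% of all pairs of tested miRNAs.

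Among miRNAs outside the family, those closest in pattern over the 6 libraries to the summed family level were let-7g-5p, miR-423-5p and miR-423-3p. Likeness was the root mean square difference of centred log2 CPM, 0.108, 0.110 and 0.143, beside a median of 0.566 over the 184 miRNAs ranked. The sum is mostly miR-200b-3p, which ranked 1, and let-7g-5p lay closer to it than any other member did. miR-200a-5p ranked 61 and miR-141-3p 74, so this is not likeness to each member. The 3 named miRNAs were near level with TMM scaling (log2 fold change 0.17, 0.10 and -0.00024). let-7g-5p, an arm of the let-7 family of differentiated cells, had 20648, 27158 and 23084 CPM in the BMP4 libraries, against 21098, 22571 and 19473 CPM in the PBS libraries. Like the family sum, let-7g-5p was highest in BMP4 replicate 2.

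Other miRNAs known from EMT were taken as a list of 20, of which 14 were in the table and 13 were tested. With TMM scaling, 2 of these rose, 4 fell and 7 did not pass, with a median log2 fold change of -0.14. Over all miRNAs tested 17.4% were called higher and 12.8% lower, with a median of 0.03, and nothing particular to the list is read from these counts. miR-203-3p, which restrains stemness in skin and other epithelia, rose, with 7994 ± 1689 CPM with BMP4 and 3918 ± 447 CPM with PBS (SD, n = 3 each; log2 fold change 1.03 ± 0.29, SE; edgeR adjusted p = 0.0104). miR-101a-3p, known for targeting the histone methyltransferase Ezh2, rose by 1.46 ± 0.41 on the log2 scale (SE; edgeR adjusted p = 0.0104). With total counts miR-203-3p was called lower instead (log2 fold change -0.83, edgeR adjusted p = 0.00799), as were 81% of all miRNAs tested. On that scale miR-101a-3p was negative without passing (log2 fold change -0.48, edgeR adjusted p = 0.250). With TMM each lost its call without 1 library (edgeR adjusted p = 0.0532 without PBS replicate 1 for miR-203-3p and 0.0649 without PBS replicate 2 for miR-101a-3p). With totals that left out the gut arms, miR-101a-3p also missed the threshold (edgeR adjusted p = 0.0598). miR-205-5p, which like the miR-200 family represses Zeb1 and Zeb2, fell, with a log2 fold change of -3.01 ± 0.55 (SE; edgeR adjusted p = 0.000233). It was rare, at 2.73 ± 2.43 CPM with BMP4 and 27.8 ± 7.03 CPM with PBS (SD, n = 3 each). miR-34c-5p and miR-34a-5p, p53 targets that repress Snail in human cells, fell by 2.31 ± 0.49 and 1.60 ± 0.46 on the log2 scale (SE; edgeR adjusted p = 0.00100 and 0.0111). Both were rare too, with 2, 1 and 11 counts for miR-34c-5p and 13, 2 and 28 for miR-34a-5p in the BMP4 libraries. In the PBS libraries they had 8, 82 and 95 counts, and 25, 114 and 188. The size of these falls is therefore uncertain. Omitting BMP4 replicate 3, PBS replicate 1 or PBS replicate 3 left miR-34a-5p short of the threshold (edgeR adjusted p = 0.0709, 0.0505 and 0.101). miR-221-3p, a growth-linked miRNA, fell by 0.96 ± 0.36 on the log2 scale (SE; edgeR adjusted p = 0.0462). It passed without BMP4 replicate 2 but not when any other library was omitted. The most abundant of the list, miR-30d-5p, did not pass, with a log2 fold change of 0.30. The miR-30 family members, known for targeting Snail, gave values of 0.46 for miR-30a-5p and -0.41 for miR-30e-5p, and neither passed.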

How the data were processed

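The authors deposited one table of raw counts per mature miRNA. Per the study's methods, adapters were trimmed, reads outside a set length range were discarded, and the rest were mapped and quantified with miRDeep2 at default settings. For the genome build, the miRBase release and the rule that kept 199 miRNAs, nothing is given in the sources used here, and the labels name edgeR without a version. Groups came from the treatment labels.

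Counts were tested with edgeR 4.0.16 in R 4.3.3 (TMM, filterByExpr, quasi-likelihood F test, no covariate, adjusted p under 0.05). Arm ratios were tested with limma 3.58.1 on log2 values with 0.5 added to each arm, and shares with exact 2-sided permutation tests (scipy 1.17.1), for which the smallest p is 0.1. The script was tested on simulated data, with equal numbers of rises and falls for edgeR. These were not built to copy the shift in composition between the groups, so they do not check the choice of scaling. Alternatives were DESeq2 1.42.0, other scaling factors, no filter, a replicate block, another arm pseudocount and minimum, and each library left out.

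All members were named, with the 3 miRNAs closest in pattern and, from the EMT-linked list, those called and the most abundant. Members and lists were chosen with earlier results of these data known, and the 5p-arm share and the pair ratios after the counts were seen. RefSeq sequences matched 177 of the 199 entries and 8 of 8 members. Replicate libraries differed beyond sampling noise, so none was a copy or resampling of another. This cannot tell whether they came from separate cultures. Intervals and the 3-count floor reflect counting error alone, as reads copied by PCR are not separate molecules.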

Additional observations from a re-analysis of the deposited data

How the results depend on the processing

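Depth, down to 259811 counts in PBS replicate 1, limited miR-141-5p most. The number of members called (1) became 0 with upper quartile factors, 0 with totals that left out the arms of miR-192, miR-194 and miR-215, 0 with the replicate block, and 8 (all lower) with total counts, and was 0 to 1 when single libraries were left out. With the block the log2 fold change of miR-200a-5p was 0.90 (edgeR adjusted p = 0.0545). Deviations of same-numbered libraries had correlations of 0.0299, 0.0709 and -0.0132, within the range of differently numbered ones (-0.136 to 0.0885). With 3 libraries per group these values cannot decide whether same-numbered libraries were paired, and the labels do not say. DESeq2, RLE factors and no filter changed no member's call. Some log2 fold changes turned round. With total counts they were -1.30 for miR-141-3p, -1.75 for miR-141-5p, -1.47 for miR-200a-3p, -0.95 for miR-200a-5p, -1.70 for miR-200b-3p, -1.43 for miR-200b-5p and -1.70 for miR-429-3p. With upper quartile factors they were -0.075 for miR-141-5p, -0.0043 for miR-200b-3p and -0.036 for miR-429-3p, and with the reduced totals -0.20, -0.15 and -0.14. Leaving out single libraries gave -0.030 to 0.69 for miR-141-3p, -0.18 to 0.31 for miR-141-5p, -0.035 to 0.28 for miR-200b-3p and -0.19 to 0.38 for miR-429-3p. The differences in share of the family then ran from -0.0194 to 0.185 percentage points for miR-141-3p, -0.00433 to 0.00267 for miR-141-5p, -0.919 to 7.29 for miR-200b-3p and -0.304 to 0.319 for miR-429-3p. The causes were not tested, apart from the scaling changes, which move all miRNAs together. With a minimum mean of 50 counts, miR-141 gave no arm ratio.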
